A study of Equus caballus with 10 samples.

Results

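The miRNA eca-miR-31 was followed across all 10 small RNA libraries of the study. It is 1 of the 239 miRNAs in the deposited tables, and its row was taken by name. eca-miR-31 was chosen because its difference between the recipient groups was already known, so its levels are given here as a description, with no test. The EV-recipient synoviocytes (4 horses) were kept at 25% oxygen and received 5-EU-labelled EVs pooled from chondrocytes. The EV-recipient chondrocytes (5 horses) were kept at 5% oxygen and received 5-EU-labelled EVs pooled from synoviocytes. The EV-recipient control synoviocyte library (1 horse) received EVs from chondrocytes that had been grown without the label. All were primary equine cells of the metacarpophalangeal joint, exposed to EVs for 24 h, and donor cells had been cultured for 48 h with or without 5-EU. The paper states that the 5-EU treatment was then repeated and more medium was collected after another 48 h. 5-EU is a uridine analogue that enters newly made RNA and can be captured on beads after coupling to biotin. The captured RNA was sequenced. Each library was a separate recipient horse, but the libraries of a group shared 1 pool of EVs. Recipient cell type, EV source, EV dose and oxygen changed together and cannot be told apart. The paper reports more EVs per mL for the EV-recipient synoviocytes than for the EV-recipient chondrocytes. In bulk RNA, fewer cells holding a miRNA and less of it per cell cannot be told apart either.

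miR-31 is a small regulatory RNA that is conserved among mammals. Like other miRNAs it guides a silencing complex to matching messenger RNAs and lowers their output. In human and mouse cells it is known to act on RUNX2, a transcription factor of bone formation, on RHOA, a regulator of cell movement, and on dystrophin in muscle. It is abundant in epithelium and in many mesenchymal cells.

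The libraries held between 4891 and 444408 miRNA counts, and abundances are given as RPM, the deposited values in which each count is scaled to a common miRNA total. A count of 3 was taken as the floor below which a miRNA at 0 cannot be told from one that is present. Intervals are Wilson intervals at 95% confidence. Intervals and floors cover counting error only, since reads amplified by PCR are not independent molecules.

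The labels, which name the recipient cell, were checked against marker miRNAs. The paper attributes the captured RNA to the EV donors, which were of the other cell type. Both arms of miR-140, the cartilage miRNA, summed to 0 to 182 RPM in EV-recipient synoviocytes and 204.4 to 3805 RPM in EV-recipient chondrocytes, with 787 RPM in the control. The 204.4 RPM was 1 count in EV-recipient chondrocyte replicate 1, and the other EV-recipient chondrocytes held 1756 to 3805 RPM. miR-140 was thus higher where the recipients were chondrocytes and the EVs came from synoviocytes. Whether the captured RNA came from donor or recipient cells was not tested. The control thus lay between all 4 labelled EV-recipient synoviocyte libraries and these in RPM. Per 1000 spike-in counts, miR-140 had 0.154, 0.171, 0.0148 and 0 counts in the labelled EV-recipient synoviocytes and 0.0619 in the control, which lay within their range. For eca-miR-143, a miRNA of mesenchymal cells, the labelled EV-recipient synoviocytes held 11187 to 75552 RPM and the control 6149 RPM. The rest of the fibroblast-like list did not set the control apart in this way. Its eca-miR-145, at 49.2 RPM, lay within the 26.0 to 775 RPM of the labelled EV-recipient synoviocytes. The list's sum in the control, 39793 RPM, also lay within their range of 30882 to 95324 RPM. EV-recipient chondrocyte replicate 1, the shallowest library, also stood apart from its group, with 1 count of eca-miR-140-3p and none of eca-miR-140-5p. Its 16146 RPM of eca-miR-143 lay within the range of the labelled EV-recipient synoviocytes, but so did the 11328 RPM of EV-recipient chondrocyte replicate 5. For its depth and miR-140, the group mean of eca-miR-31, its fold and its pattern are also given without EV-recipient chondrocyte replicate 1. Most other means and ranges keep it, as does the fold with zeros at the floor. The control is kept apart from the labelled EV-recipient synoviocytes.

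The other marker lists were low or uneven, apart from the fibroblast-like list, which was high in all 10 libraries. The leukocyte and macrophage list summed to 58.3 to 527 RPM in EV-recipient synoviocytes (3 of 4 entries counted), 126 to 4701 RPM in EV-recipient chondrocytes (3 of 4) and 0 in the control (0 of 4). The 4701 RPM belonged to EV-recipient chondrocyte replicate 1. The epithelial list summed to 5.2 to 1399 RPM in EV-recipient synoviocytes (3 of 5 entries counted), 0 to 204.4 RPM in EV-recipient chondrocytes (4 of 5) and 0 in the control (0 of 5). Its highest sum came from eca-miR-200c, counted only in EV-recipient synoviocyte replicate 4, where eca-miR-31 was at 0. Both miR-126 entries of endothelium reached at most 93.0 RPM in EV-recipient synoviocytes and were at 0 in EV-recipient chondrocytes and in the control. The erythroid list (3 entries) summed to 27.5 to 16967 RPM in EV-recipient synoviocytes and 45.7 to 1022 RPM in EV-recipient chondrocytes, with 1722 RPM in the control. The skeletal muscle list (2 entries) summed to at most 124 RPM in EV-recipient synoviocytes and 71.0 RPM in EV-recipient chondrocytes and was at 0 in the control. The fibroblast-like list (5 entries) summed to 30882 to 95324 RPM in EV-recipient synoviocytes and 23361 to 51298 RPM in EV-recipient chondrocytes, with 39793 RPM in the control. The part of these lists in the levels of eca-miR-31 was not tested.

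eca-miR-31 was nearly absent from labelled EV-recipient synoviocytes and was counted in most EV-recipient chondrocyte libraries. EV-recipient synoviocyte replicate 1 held 67 counts, or 153.5 RPM (interval 121 to 195), and replicates 2, 3 and 4 held 0 counts. EV-recipient chondrocyte replicates 2 to 5 held 320, 167, 955 and 231 counts, and replicate 1 held 0. In RPM these were 720 (645 to 803), 4208 (3617 to 4894), 3354 (3148 to 3573) and 2343 (2060 to 2664) in replicates 2, 3, 4 and 5. The control held 30 counts, or 1476 RPM (1034 to 2106). Every library with more than 153.5 RPM was therefore an EV-recipient chondrocyte or the control, and the groups overlapped only through the 0 of EV-recipient chondrocyte replicate 1.

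**Figure D1:**
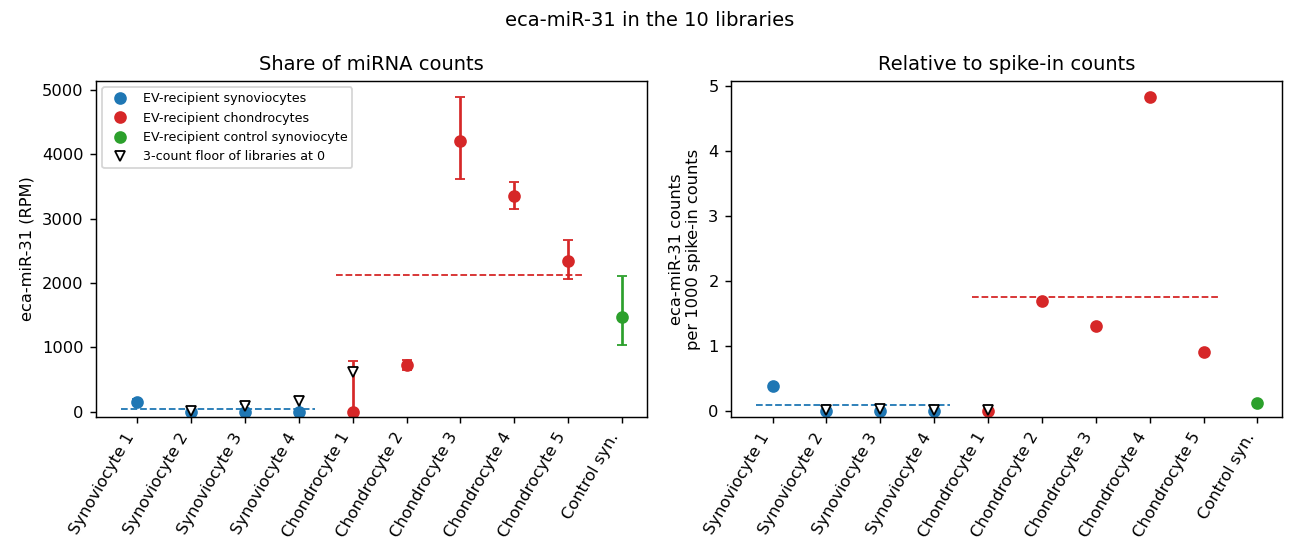
Level of eca-miR-31 in each library as RPM (left, with 95% Wilson intervals) and as counts per 1000 spike-in counts (right, no intervals). Points are libraries, dashed lines are group means, and open triangles mark the 3-count floor of libraries at 0 counts. The control stood at 1476 RPM, against 153.5 RPM in EV-recipient synoviocyte replicate 1, but lay lower than that replicate on the spike-in scale.

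The mean was 38.4 ± 76.8 RPM in EV-recipient synoviocytes (SD, n = 4) and 2125 ± 1760 RPM in EV-recipient chondrocytes (SD, n = 5). The mean of EV-recipient synoviocytes was lower by 2086 RPM, and the mean of EV-recipient chondrocytes was 55.4-fold that of EV-recipient synoviocytes. Since 3 of the 4 EV-recipient synoviocyte libraries were at 0, the fold rests on replicate 1 of that group, and without it the mean there was 0. With every library at 0 set at its own floor of 3 counts, the means were 109 RPM in EV-recipient synoviocytes and 2247 RPM in EV-recipient chondrocytes, a 20.6-fold difference. Without EV-recipient chondrocyte replicate 1 the mean of that group was 2656 ± 1499 RPM (SD, n = 4), 69.2-fold that of EV-recipient synoviocytes.

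The zeros were not confined to shallow libraries. EV-recipient synoviocyte replicate 2, with 192282 miRNA counts, was the fourth deepest library and held none. Its floor was 15.6 RPM and its interval reached up to 19.98 RPM. At the chondrocyte mean it would have held 409 counts. The control, with 20330 miRNA counts, was much shallower and held 30. Replicates 3 and 4 of the EV-recipient synoviocytes, with 32269 and 17151 miRNA counts, would have held 68.6 and 36.4 counts at that mean, and their floors were 93.0 and 175 RPM. The level of EV-recipient synoviocyte replicate 1 lay above the floors of replicates 2 and 3 and below that of replicate 4, so a level like that of replicate 1 was not detectable in replicate 4.

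EV-recipient chondrocyte replicate 1 held only 4891 miRNA counts. At the mean of the other EV-recipient chondrocyte libraries it would have held 13.0 counts of eca-miR-31, and its floor was 613 RPM. The lowest of the others, replicate 2 at 720 RPM, lay above that floor, although the interval of replicate 1 reached up to 785 RPM. By counting error alone, a level in replicate 1 like that of replicate 2 was thus within its interval, while levels like those of replicates 3, 4 and 5 were not. The interval treats reads as independent, and 9 of 20 other miRNAs of like abundance, described below, were also at 0 in this library. Its 0 therefore cannot exclude the levels of replicates 3, 4 and 5.

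**Figure D2:**
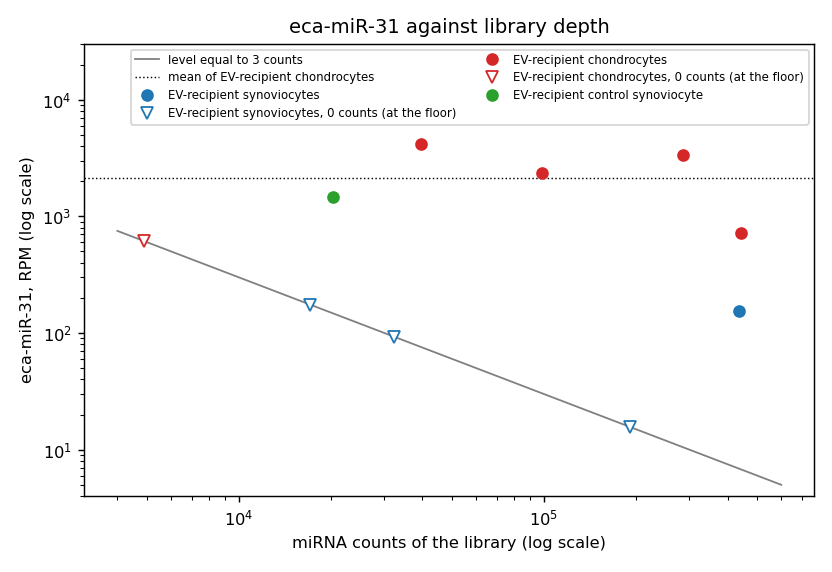
eca-miR-31 in RPM (vertical, log scale) against the miRNA counts of the library (horizontal, log scale), 1 point per library. Open triangles are libraries at 0 counts, drawn on the grey line of 3 counts, and the dotted line is the mean of EV-recipient chondrocytes, 2125 RPM. EV-recipient synoviocyte replicate 2 sits far below that line at 192282 miRNA counts, and the control lies near it at 20330.

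Among the 4 EV-recipient chondrocyte libraries with counts, eca-miR-31 varied 5.84-fold. Placed in order, EV-recipient chondrocyte replicates 3, 4 and 5 came first, followed by the control, EV-recipient chondrocyte replicate 2 and EV-recipient synoviocyte replicate 1. Only the control and EV-recipient chondrocyte replicate 5 had intervals that overlapped their neighbour's, so the other steps in this order exceeded counting error. Replicate 4 carried 57.1% of the 1673 counts of the EV-recipient chondrocytes. By rank, eca-miR-31 was number 90 of 175 detected miRNAs in EV-recipient synoviocyte replicate 1. It was number 63 of 176, 34 of 121, 38 of 161 and 42 of 142 in EV-recipient chondrocyte replicates 2 to 5, and number 51 of 96 in the control. It made up no more than 0.421% of the miRNA counts of any library.

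The labelled and control libraries share the recipient cell type that GEO gives and the cell type of the EV donors, but the control EVs came from donor horses of their own. eca-miR-31 stood at 153.5, 0, 0 and 0 RPM in the labelled libraries and at 1476 RPM in the control. The control stood 9.61 times above the highest labelled library. No label had been added for the control, so its counts measure what the capture recovered without one. A single control gives no replicate check. Among the 115 miRNAs with at least 10 counts in at least 4 libraries, the control lay above all 4 labelled EV-recipient synoviocyte libraries for 42 (36.5%) and below all 4 for 22 (19.1%). For 19 of the 115, eca-miR-31 among them, the control lay above all 4 while within the range of the EV-recipient chondrocytes.

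The order of the control and EV-recipient synoviocyte replicate 1 depended on the scale. Spike-in calibrators, synthetic RNAs added before library preparation, allow counts to be set against a fixed addition instead of the other miRNAs. Per 1000 spike-in counts, eca-miR-31 had 0.383 counts in EV-recipient synoviocyte replicate 1 and 0 in the other 3, against 0.116 in the control. Here the labelled replicate 1 stood 3.3 times above the control, the reverse of their RPM order. The control still lay above labelled replicates 2, 3 and 4, whose 3-count floors were 0.0146, 0.0222 and 0.0111 on this scale. The labelled EV-recipient synoviocytes held 2.49, 0.938, 0.239 and 0.0634 miRNA counts of any kind per spike-in count, and the control held 0.0786. On this scale the control lay above all 4 labelled EV-recipient synoviocyte libraries for 1 of the 115 miRNAs (0.87%).

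The difference between the recipient groups kept its direction on the spike-in scale. Replicates 2 to 5 of the EV-recipient chondrocytes held 1.69, 1.31, 4.83 and 0.899 counts per 1000 spike-in counts and replicate 1 held 0. All 4 libraries with counts lay above every EV-recipient synoviocyte library and the control. The means were 0.0957 ± 0.191 in EV-recipient synoviocytes (SD, n = 4) and 1.75 ± 1.83 in EV-recipient chondrocytes (SD, n = 5), or 2.18 ± 1.79 without EV-recipient chondrocyte replicate 1 (SD, n = 4). The highest and lowest of the 4 libraries differed 5.37-fold, and EV-recipient chondrocyte replicate 4 was the highest, where replicate 3 had been highest in RPM.

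For comparison, the 20 other miRNAs with a chondrocyte mean between 1062 and 4250 RPM, within 2 times that of eca-miR-31, were examined. Of these, 18 were counted in all 4 EV-recipient synoviocyte libraries. eca-miR-140-3p, an arm of the cartilage miRNA, was at 0 in 2 of the 4 and eca-let-7g at 0 in 1, whereas eca-miR-31 was at 0 in 3. In EV-recipient synoviocyte replicate 4, at 17151 miRNA counts, 18 of the 20 were counted. The ratio of mean RPM, EV-recipient synoviocytes over EV-recipient chondrocytes, was 0.0181 for eca-miR-31, against a median of 1.13 and a range of 0.0206 to 1.94 over the 20. The low end of that range was eca-miR-140-3p. Without EV-recipient chondrocyte replicate 1 the ratio was 0.0144 for eca-miR-31, against a median of 1.03 and a range of 0.017 to 1.93 over the same 20. These ratios are a description, since eca-miR-31 was chosen on this contrast.

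The miRNAs nearest to eca-miR-31 in chondrocyte mean were present in both groups. eca-miR-28-3p averaged 2144 ± 605 RPM in EV-recipient synoviocytes (SD, n = 4) and 2062 ± 1260 RPM in EV-recipient chondrocytes (SD, n = 5). eca-miR-199b-5p, from a family abundant in fibroblasts, averaged 3887 ± 888 RPM in EV-recipient synoviocytes and 1999 ± 1401 RPM in EV-recipient chondrocytes. eca-miR-660 averaged 1844 ± 77.4 RPM in EV-recipient synoviocytes and 2424 ± 1374 RPM in EV-recipient chondrocytes. eca-miR-214, known to restrain bone-forming cells in mouse, averaged 3558 ± 965 RPM in EV-recipient synoviocytes and 2610 ± 1737 RPM in EV-recipient chondrocytes. EV-recipient chondrocyte replicate 1 was at 0 for 9 of the 20, so a 0 there was common at this abundance. In the control all 20 were counted, with 2 to 186 counts.

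**Figure D3:**
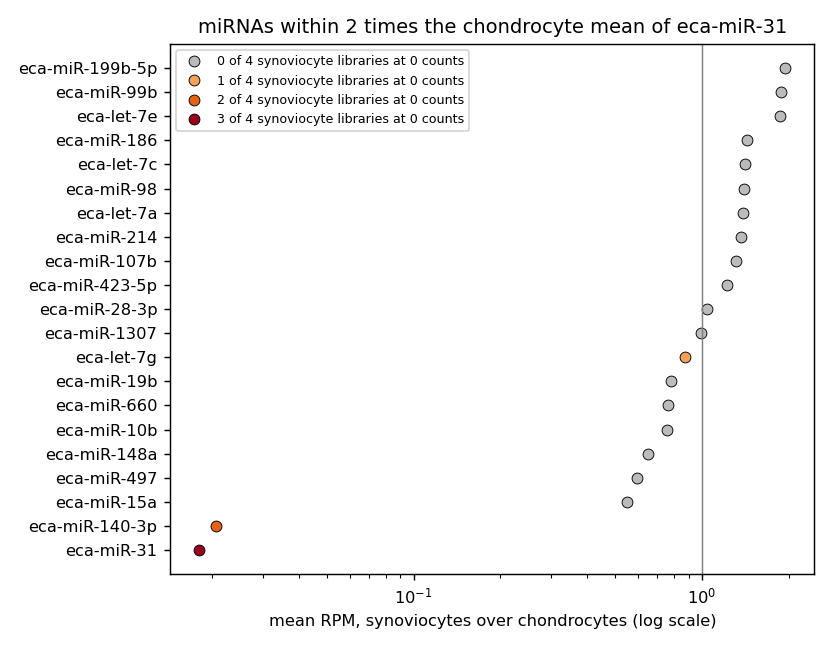
Ratio of mean RPM, EV-recipient synoviocytes over EV-recipient chondrocytes (log scale), for eca-miR-31 and the 20 miRNAs within 2 times its chondrocyte mean. Colour gives the number of the 4 EV-recipient synoviocyte libraries at 0 counts. eca-miR-31 (0.0181) and eca-miR-140-3p (0.0206) lie apart from the rest on the left.

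The pattern of eca-miR-31 over the 10 libraries was set against the other miRNAs with at least 10 counts in at least 4 libraries, by Pearson's r of log2(RPM + 10). The points share library depth and, for low miRNAs, zeros, so r is a description. The 6 most like it were eca-miR-140-5p (r = 0.90), eca-miR-23b (0.90), eca-miR-20a (0.89), eca-miR-196b (0.88), eca-miR-99a (0.78) and eca-miR-140-3p (0.70). miR-140 is the cartilage miRNA, miR-23b belongs to a cluster with miR-27b, miR-20a to a cluster linked to cell proliferation, and miR-196b to a HOX gene cluster. Over the 9 labelled libraries alone, 4 of these 6 stayed among the top 6, and eca-miR-218 and eca-miR-487b took the places of eca-miR-99a and eca-miR-140-3p. Without EV-recipient chondrocyte replicate 1, eca-miR-140-5p, eca-miR-23b, eca-miR-20a and eca-miR-196b stayed among the top 6, with r of 0.86 to 0.91.

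eca-miR-20a shared the zeros of eca-miR-31 most closely. It stood at 61.9, 0, 0 and 0 RPM in EV-recipient synoviocytes, at 0, 137, 378, 31.6 and 314 RPM in EV-recipient chondrocytes, and at 492 RPM in the control. Its zeros fell in the same 4 libraries as those of eca-miR-31, and the control was its highest library. Unlike eca-miR-31, it was lower in EV-recipient chondrocyte replicate 4 than in EV-recipient synoviocyte replicate 1. eca-miR-140-5p stood at 61.9, 135, 0 and 0 RPM in EV-recipient synoviocytes, at 0, 1377, 1008, 931 and 1369 RPM in EV-recipient chondrocytes, and at 639 RPM in the control. EV-recipient chondrocyte replicate 1 was at 0 here too. The control lay above every labelled EV-recipient synoviocyte and below the other EV-recipient chondrocytes, unlike for eca-miR-31, where it exceeded EV-recipient chondrocyte replicate 2. The control held only 10 counts of eca-miR-20a and 13 of eca-miR-140-5p. No intervals were computed for these 2 miRNAs, so their contrasts with eca-miR-31 may lie within counting error.

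eca-miR-23b was far more abundant and was counted in every library. It stood at 3966, 1898, 2975 and 4606 RPM in EV-recipient synoviocytes, at 4292, 15119, 16327, 16950 and 9948 RPM in EV-recipient chondrocytes, and at 15347 RPM in the control. EV-recipient chondrocyte replicate 1 lay among the EV-recipient synoviocytes and the control among the other EV-recipient chondrocytes. eca-miR-23b was chosen for its likeness over these libraries, so this is a description. The control lay above all 4 labelled EV-recipient synoviocyte libraries for each of the 6 miRNAs most like eca-miR-31, which their choice over all 10 libraries favours.

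The 3 miRNAs least like eca-miR-31 were eca-miR-181b (r = -0.78), eca-miR-143 (-0.76) and eca-let-7e (-0.57). eca-miR-181b stood at 2277, 2392, 3316 and 2391 RPM in EV-recipient synoviocytes, at 1839, 916, 75.6, 1208 and 477 RPM in EV-recipient chondrocytes, and at 148 RPM in the control. It was thus lowest in EV-recipient chondrocyte replicate 3, where eca-miR-31 was highest. eca-miR-181b had only 3 counts there and 3 in the control, which is the floor used here. eca-miR-143 averaged 38194 ± 27081 RPM in EV-recipient synoviocytes (SD, n = 4) and 7294 ± 6192 RPM in EV-recipient chondrocytes (SD, n = 5). The control lay below all 4 labelled EV-recipient synoviocyte libraries for both eca-miR-181b and eca-miR-143.

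**Figure D4:**
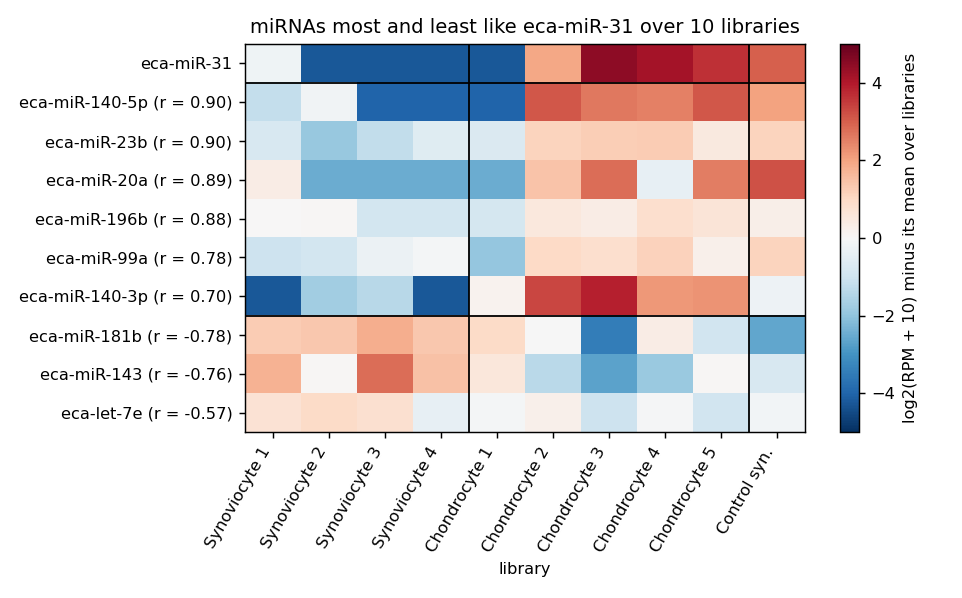
log2(RPM + 10) of eca-miR-31 and of the 6 most like and 3 least like miRNAs in the 10 libraries, each minus its own mean over the libraries (red above, blue below), with Pearson's r beside each name. EV-recipient chondrocyte replicate 1 is blue for eca-miR-31, eca-miR-140-5p and eca-miR-20a, all at 0 counts there, and the control is red for eca-miR-31 and eca-miR-23b.

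As background for the contrast on which eca-miR-31 was chosen, edgeR's quasi-likelihood test called 4 of the 49 miRNAs abundant enough to test (8.16%) between EV-recipient synoviocytes and EV-recipient chondrocytes at an adjusted p under 0.05. Nothing is read from this share about eca-miR-31 itself.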

How the data were processed

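Small RNA captured through the 5-EU label was sequenced from 10 recipient cultures. The authors trimmed reads with cutadapt 3.3 and mapped them with Bowtie 1.3.0 and miRDeep2 to the horse genome EquCab 3.0 with 2 mismatches and to horse miRBase entries with 1 mismatch. The authors deposited raw counts of 239 miRNAs and 8 spike-in calibrators. The authors also deposited RPM, which matched counts divided by the library's summed miRNA counts, spike-ins excluded, within 0.0472%. RPM is a share, so it moves with the other miRNAs of a library. Reads allowed 1 mismatch, so closely related miRNAs may share reads.

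GEO's title for the control library says synoviocyte only. It was set apart by its library name and the group row of the deposited tables. Replicates differed beyond sampling noise (lowest chi-square over degrees of freedom 11.9).

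The level of eca-miR-31 was described per library with Wilson intervals (scipy 1.17.1). The background test was edgeR 4.0.16 (R 4.3.3), TMM, quasi-likelihood, Benjamini-Hochberg at 0.05, on the 9 labelled libraries, keeping miRNAs that reached 2045 RPM in 2 or more of them. It was tested on simulated data. DESeq2 1.42.0 was an alternative. The member, lists and alternatives were chosen with earlier results of these data known. Named were eca-miR-31, the 6 miRNAs most and 3 least like it, the 4 nearest in chondrocyte mean, and those of like abundance at 0 in most EV-recipient synoviocyte libraries. Sequences were not used here, and 1 list of miRNAs is not reported here. Beyond the rule, eca-let-7g, eca-miR-218, eca-miR-487b and eca-miR-200c were named after their values were seen.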

Additional observations from a re-analysis of the deposited data

Results flagged for a closer look

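In EV-recipient synoviocytes, the deposited RPM of 1 of the 4 libraries lay apart from the others for 3 of the miRNAs checked. eca-miR-200c, counted in replicate 4 alone, was not among those checked. eca-miR-31 stood at 153.5 RPM in replicate 1 and at 0 in the other 3. eca-miR-20a stood at 61.9 RPM in replicate 1, again with 0 in the other 3. Where 3 of 4 values are 0, the other always stands apart in this way. The floor of replicate 4, 175 RPM, exceeded both of these levels and that of replicate 3, 93.0 RPM, exceeded the 61.9 RPM of eca-miR-20a, so those zeros cannot be told from replicate 1. eca-miR-181b stood at 3316 RPM in replicate 3, against 2277, 2392 and 2391 RPM in replicates 1, 2 and 4. Of the 36 groups of libraries checked in this way, chance alone would mark about 1 in 20 if the values were normally distributed. Groups with several zeros are not, so that rate does not hold for them. No EV-recipient chondrocyte library stood apart in this way for the miRNAs checked.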

How the results depend on the processing

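The mean of eca-miR-31 in EV-recipient synoviocytes, 38.4 RPM, was 45.3 with TMM scaling, 98.8 with pooled counts and 109 with zeros at the floor, and leaving out each library gave 0 to 51.2 RPM. In EV-recipient chondrocytes, 2125 RPM became 2053, 1918 and 2247 under the same settings, and 1604 to 2656 RPM with a library left out. All of these moves were smaller than the SD between libraries. With 3 of 4 EV-recipient synoviocyte libraries at 0, leaving out a library cannot move that mean by more than its SD. For that group the comparison is therefore no check of stability. The ratio of means, EV-recipient synoviocytes over EV-recipient chondrocytes, was 0.0181 in RPM, 0.0548 per spike-in count and 0.0144 without EV-recipient chondrocyte replicate 1, the last chosen after seeing the data. The log2 ratio of the control over EV-recipient synoviocyte replicate 1 was 3.27 in RPM and -1.72 per spike-in count, a setting chosen after seeing the data. Of the 6 miRNAs most like eca-miR-31, 5 stayed with Spearman's rho, 6 with log2(RPM + 100) and 4 over the 9 labelled libraries, and of the 3 least like it 2 stayed under each.

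The number of miRNAs called between the groups, 4 of 49, was 4 with DESeq2 size factors, 5 with DESeq2 and 14 of 239 with no filter on low counts. It ran from 1 to 8 with each library left out, being 8 of 81 tested without EV-recipient chondrocyte replicate 1, 2 without EV-recipient synoviocyte replicate 2, and 1 without EV-recipient synoviocyte replicate 3 or any of EV-recipient chondrocyte replicates 2 to 5. The cause was not tested. With the replicate block it was 1. Replicate numbers do not pair these horses: deviations of libraries with the same number correlated at -0.10, 0.32, -0.09 and -0.05 in replicates 1 to 4, and only replicate 2 correlated best with its own number.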
